A study of Homo sapiens with 6 samples.

Results

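Genes of the extracellular matrix and of its cell surface binding partners were followed in the human embryonic stem cell line H9 after transduction with 3 lentiviral vectors. The genes were chosen by symbol: collagen, laminin, integrin and glypican chains, plus 13 named matrix genes such as fibronectin and the fibrillins. Of 95 such symbols in RefSeq, 18 had a named array row, among 14884 named genes in all. These 18 were the 6 glypicans, 11 of the 13 named matrix genes, and COL26A1 out of 44 collagen symbols. The 12 laminin, 20 integrin and other 43 collagen symbols, with SPARC and POSTN, had no named row and were not analysed here. The set measured is therefore one of fibronectin, vitronectin, fibrillins, nidogens, heparan sulfate proteoglycans, glypicans and small leucine-rich proteoglycans, and not one of collagens, laminins or integrins.

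All cells were of H9, sorted for GFP together with a surface marker of pluripotent cells, plated singly on mouse fibroblast feeders, expanded from colonies and kept in feeder-conditioned medium with bFGF at 8 ng/ml. CTRL clones carried the vector with eGFP and no histone gene. Gamma_ON clones carried eGFP and H2A.X with the substitution S139E, in which glutamate stands in for the phosphorylated serine of γH2A.X, and gamma_OFF clones carried eGFP and H2A.X with T136A and S139A, which removes those phosphorylation sites. Each group had 2 arrays, and the labels do not say whether replicates are separate clones or cultures, so the p-values measure a spread that may be technical. Unsubstituted H2A.X was in none of the vectors. In either comparison with CTRL the effect of a substitution and that of extra H2A.X protein therefore cannot be told apart. Gamma_ON and gamma_OFF clones both carried H2A.X, with different substitutions, and their levels of vector H2A.X were not compared here.

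The extracellular matrix is a meshwork of secreted proteins and proteoglycans on which cells sit. Sheet-like basement membranes, held together by nidogens and the heparan sulfate proteoglycans perlecan and agrin, underlie epithelia, while fibronectin fibrils and fibrillin microfibrils fill the space between cells. Human pluripotent stem cells depend on such ligands for attachment, and recombinant vitronectin and laminin are common coatings for their culture. Glypicans are heparan sulfate proteoglycans tied to the outer membrane by a lipid anchor, where they bind WNT, FGF, BMP and Hedgehog ligands.

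Values are log2 levels, so a difference of 1 is a 2-fold change, and levels were compared only within a gene. A gene was called where limma's Benjamini-Hochberg adjusted p, taken across the 14884 genes, was under 0.05. Medians of all rows lay between 6.11 and 6.25 on the 6 arrays, and DCN and GPC5 were dim, with means under the median row. The gamma_OFF arrays had the narrowest signal ranges, with an SD across the named genes of 1.70 and 1.64. The CTRL and gamma_ON arrays had 1.76 to 1.81. As the second gamma_OFF array was the narrowest, each call of the 18 genes that involves gamma_OFF is also given without it. This leaves the first gamma_OFF array, whose range was also under those of the other groups. Among the matrix genes the CTRL arrays differed most: the median distance between replicates was 0.22 in CTRL, 0.084 in gamma_ON and 0.14 in gamma_OFF, against 0.11, 0.12 and 0.18 over all genes. CTRL replicate 1 was the higher one for 15 of the 18 genes and for 50.5% of all genes, and gamma_ON replicate 1 for 15 of the 18 and 61.5% of all.

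Of 10 fixed pluripotency markers 9 were measured, all above the median row. Their log2 levels summed to 90.9 to 92.2 in CTRL, 92.5 to 93.1 in gamma_ON and 93.1 to 93.5 in gamma_OFF. Against CTRL, limma called 1 of the 9 in gamma_ON, POU5F1 (0.71, adjusted p = 0.0441), where 1.55% of all genes were called. It called 1 of the 9 in gamma_OFF, DNMT3B (0.46, adjusted p = 0.0489), where 8.85% of all genes were called. Of 14 fibroblast and mesenchyme markers 10 were measured, and 4 of them (S100A4, TWIST1, TWIST2 and DPT) lay under the median row. Summed levels of all 10 measured fibroblast and mesenchyme markers were 73.3 to 75.1 in CTRL, 72.7 to 73.4 in gamma_ON and 71.2 to 71.7 in gamma_OFF. Of 11 endoderm markers 10 were measured, all above the median row, with sums of 81.3 to 84.0 in CTRL, 93.7 to 94.3 in gamma_ON and 78.9 to 79.0 in gamma_OFF. The 3 measured trophoblast markers summed to 20.8 to 21.1, 22.6 to 23.1 and 20.6 to 21.1 in the same order. The 6 neural markers summed to 46.3 to 47.2, 44.7 to 45.0 and 45.9 to 45.9. Against CTRL, limma called 1 of the 3 trophoblast markers in gamma_ON, HAND1 (1.59, adjusted p = 0.0012). In gamma_OFF it called 1 of the 3, GATA3 (-0.83, adjusted p = 0.0114). Of the 6 neural markers ZIC1 was called lower in gamma_ON, and ZIC1 and NES were called lower in gamma_OFF. Of these pluripotency, trophoblast and neural calls against CTRL, only that of HAND1 held whichever array was left out. Those of POU5F1 and ZIC1 in gamma_ON were lost without any single CTRL or gamma_ON array.

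In gamma_ON against CTRL 2 of the 18 genes were called, VTN higher and GPC4 lower, where 1.55% of all genes were called, 0.739% higher and 0.806% lower. The median log2 difference was -0.16 over the 18 and 0.02 over all genes. In gamma_OFF against CTRL 5 of 18 were called, all lower (FN1, FBN1, FBN2, HSPG2 and AGRN), where 8.85% of all genes were called, 2.77% higher and 6.08% lower. Limma called 0 of the 18 higher, with 1 higher and 8 lower at an unadjusted p under 0.05, a cut that 14.1% of all genes passed higher and 16.3% lower. The genes called by limma at an adjusted p under 0.05 were 3 lower and 1 higher (GPC4) after quantile normalization. They were 5 lower and 1 higher (again GPC4) after rescaling of the signal range. The medians were -0.27 over the 18 and 0.01 over all genes. In gamma_ON against gamma_OFF 9 of 18 were called, where 5.99% of all genes passed, 3.98% higher and 2.02% lower. The 9 comprised 8 genes higher in gamma_ON (VTN, FN1, FBN2, NID2, FBN1, LUM, GPC6 and LOX) and GPC4, which was lower, with medians of 0.31 over the 18 and 0.02 over all genes. Over the 3 comparisons 11 of the 18 genes were called at least once and 7 (DCN, NID1, GPC1, GPC2, GPC3, GPC5 and COL26A1) in none.

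**Figure D1:**
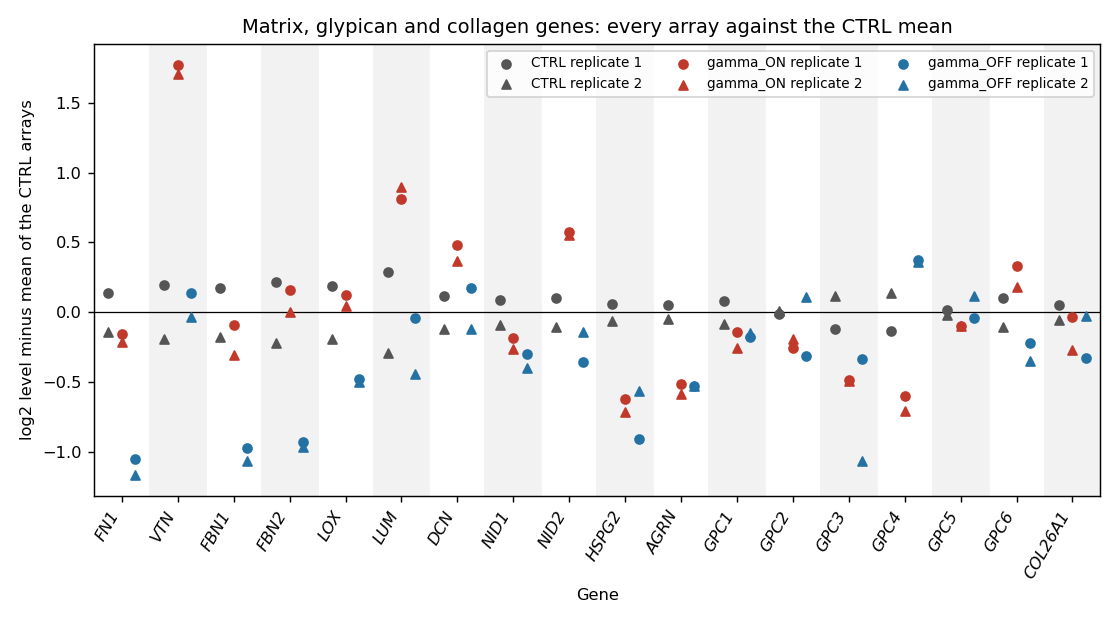
Log2 level of each of the 18 genes on each of the 6 arrays, minus the mean of the CTRL arrays of that gene. Colours mark the vector and shapes the replicate number; the gamma_ON arrays stand highest for VTN, LUM and NID2, and the gamma_OFF arrays lowest for FN1, FBN1, FBN2 and LOX.

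Promoter sequence was available for 14 of the 18 genes, and 5 windows are printed because the results turn on these genes: FN1, FBN1, FBN2 and HSPG2, which fell in gamma_OFF, and VTN, which rose in gamma_ON. Each is the stretch of 250 bases before the RefSeq gene start (GRCh38.p14), 5′ to 3′ on the gene's strand, which is the minus strand for all 5. FN1 lies at chr2:215436069-215436318, FBN1 at chr15:48644971-48645220, FBN2 at chr5:128538246-128538495, HSPG2 at chr1:21937311-21937560 and VTN at chr17:28370308-28370557. Capitals mark matches, on either strand, to any of 6 motifs. The TATA box was searched as the word TATAAA. The CCAAT box was searched as its own name spells it. The GC box was searched as the word GGGCGG. The cAMP response element was searched as TGACGTCA, the E-box of MYC and USF factors as the word CACGTG, and the TEAD site as the word GGAATG.
FN1: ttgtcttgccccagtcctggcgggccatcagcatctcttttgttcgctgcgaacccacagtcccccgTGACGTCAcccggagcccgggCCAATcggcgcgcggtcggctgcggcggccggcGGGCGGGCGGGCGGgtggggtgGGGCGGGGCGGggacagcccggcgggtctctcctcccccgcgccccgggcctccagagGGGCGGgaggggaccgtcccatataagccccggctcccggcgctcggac
FBN1: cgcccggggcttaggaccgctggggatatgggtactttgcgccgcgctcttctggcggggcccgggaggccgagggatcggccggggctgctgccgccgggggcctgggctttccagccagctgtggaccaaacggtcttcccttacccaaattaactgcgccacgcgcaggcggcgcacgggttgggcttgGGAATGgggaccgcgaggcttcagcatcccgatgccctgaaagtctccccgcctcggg
FBN2: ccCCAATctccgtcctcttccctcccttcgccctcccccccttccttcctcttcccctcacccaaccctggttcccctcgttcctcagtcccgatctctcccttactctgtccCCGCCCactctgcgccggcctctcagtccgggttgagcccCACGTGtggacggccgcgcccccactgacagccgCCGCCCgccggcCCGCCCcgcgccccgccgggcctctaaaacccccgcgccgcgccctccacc
HSPG2: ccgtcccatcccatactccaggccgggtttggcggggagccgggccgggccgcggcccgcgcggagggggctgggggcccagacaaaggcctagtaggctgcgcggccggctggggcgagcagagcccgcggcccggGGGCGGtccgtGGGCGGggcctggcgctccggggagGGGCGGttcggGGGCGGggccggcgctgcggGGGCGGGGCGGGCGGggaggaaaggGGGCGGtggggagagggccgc
VTN: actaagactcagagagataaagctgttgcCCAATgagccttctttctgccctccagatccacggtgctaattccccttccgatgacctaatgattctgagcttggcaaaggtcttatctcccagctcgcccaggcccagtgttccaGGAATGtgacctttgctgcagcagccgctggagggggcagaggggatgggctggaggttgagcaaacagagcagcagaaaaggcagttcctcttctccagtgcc

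The FN1 window holds the 8 bases TGACGTCA from 183 to 176 bases before the start, a word found in 1.65% of 35116 promoter windows of this length. It also holds a CCAAT word and 6 GC box words, 5 of which overlap another. HSPG2 holds 8 GC box words and no other motif searched, with 3 of them overlapping. FBN2 holds CACGTG from 97 to 92 bases before the start, a CCAAT word and 3 GC box words. The FBN1 and VTN windows each hold GGAATG, at 58 to 53 and 104 to 99 bases before the start, and VTN also holds a CCAAT word, while neither holds a GC box word. No motif of the 6 was in all of the FN1, FBN1, FBN2 and HSPG2 windows, and TATAAA was in none of the 5 printed. Over all windows CCAAT was in 32.0%, GGGCGG in 42.6%, CACGTG in 6.34%, GGAATG in 11.9% and TATAAA in 10.7%. The share of G and C was 76.4% in FN1, 69.6% in FBN1, 72.8% in FBN2, 82.8% in HSPG2 and 54.8% in VTN, with a median of 58.0% over all windows. Of the 14 matrix gene windows 11 were above that median. These matches describe the letters of the windows, and binding of a factor was not measured.

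FN1, which encodes fibronectin, a fibril-forming glycoprotein to which integrins attach, fell in gamma_OFF. Its log2 level was 12.68 and 12.40 on the CTRL arrays, 12.39 and 12.34 on the gamma_ON arrays, and 11.50 and 11.38 on the gamma_OFF arrays. Both gamma_OFF arrays were lower than the other 4, and the gamma_ON arrays lay just under the lower CTRL array. In gamma_OFF against CTRL the log2 difference was -1.11 (SE 0.13, adjusted p = 0.0048), a 2.15-fold lower signal. FN1 was called lower in gamma_OFF whichever array was left out, with adjusted p-values between 0.00704 and 0.0375, and its difference without gamma_OFF replicate 2 was -1.05 (adjusted p = 0.0272). In gamma_ON against CTRL the difference was -0.18 (95% interval -0.48 to 0.12, adjusted p = 0.582), so no change was called there. The effects of the vectors were set against each other directly in gamma_ON against gamma_OFF, where FN1 stood 1.90-fold higher (log2 difference 0.93, SE 0.13, adjusted p = 0.0103). Leaving out gamma_ON replicate 1 ended that call (adjusted p = 0.134), as did leaving out its replicate 2 (0.0692) or gamma_OFF replicate 2 (0.0516).

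FBN1 and FBN2, which encode the fibrillins of elastic microfibrils, fell in gamma_OFF as well. FBN1 stood at 7.97 and 7.61 in CTRL, 7.70 and 7.49 in gamma_ON, and 6.82 and 6.72 in gamma_OFF. FBN2 stood at 9.15 and 8.71 in CTRL, 9.09 and 8.93 in gamma_ON, and 8.00 and 7.97 in gamma_OFF. For either gene the gamma_OFF arrays were the lowest, and the CTRL and gamma_ON ranges overlapped. The log2 difference of gamma_OFF from CTRL was -1.02 for FBN1 (SE 0.15, adjusted p = 0.00845) and -0.95 for FBN2 (SE 0.15, adjusted p = 0.012). Without gamma_OFF replicate 2, FBN1 differed by -0.97 (adjusted p = 0.0442) and FBN2 by -0.93 (adjusted p = 0.0533), and without CTRL replicate 1 their adjusted p-values were 0.0596 and 0.078. In gamma_ON against CTRL the differences were -0.20 (95% interval -0.53 to 0.14) for FBN1 and 0.08 (-0.27 to 0.43) for FBN2, and neither passed the test. Gamma_ON exceeded gamma_OFF by 0.82 for FBN1 (SE 0.15, adjusted p = 0.0251) and by 1.02 for FBN2 (SE 0.15, adjusted p = 0.0126).

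Those fibrillin calls between the histone vectors were lost when single arrays were left out. For FBN1 the adjusted p was 0.239 or 0.0777 when gamma_ON replicate 1 or 2 was dropped, and 0.0995 when gamma_OFF replicate 2 was. For FBN2 the same fits gave 0.155, 0.0662 and 0.0699. The FBN1 call was also lost with array weights (adjusted p = 0.0566).

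LOX encodes lysyl oxidase, the enzyme that crosslinks collagen and elastin. It was measured at 7.74 and 7.36 in CTRL, 7.67 and 7.59 in gamma_ON, and 7.07 and 7.05 in gamma_OFF. Both gamma_OFF arrays were under all others. The difference of -0.49 from CTRL missed the threshold (SE 0.14, adjusted p = 0.0626), while gamma_ON exceeded gamma_OFF by 0.57 (SE 0.14, adjusted p = 0.0496). That last call lay at the threshold: it was lost without either CTRL array (adjusted p = 0.0661 each), gamma_ON replicate 1 (0.302) or 2 (0.123), or gamma_OFF replicate 2 (0.14). It was also lost with array weights (0.0963), with only the compared groups in the fit (0.0661), after quantile normalization (0.0642) and after rescaling of the signal range (0.0671).

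Of the 10 measured fibroblast and mesenchyme markers, 1 was higher and 5 lower in gamma_OFF against CTRL at an unadjusted p under 0.05 by limma. That cut was passed by 14.1% of all genes higher and 16.3% lower. SNAI2, VIM and TAGLN were called lower and 7 did not pass, with a list median of -0.32. Of all genes 6.08% were called lower and 2.77% higher. Among those 7, PDPN (0.37, adjusted p = 0.0819), TWIST2 (0.43, adjusted p = 0.207) and DPT (0.15, adjusted p = 0.431) had differences above 0. SNAI2, which encodes a transcription factor of epithelial-mesenchymal transition, stood at 9.94 and 9.48 in CTRL, 9.66 and 9.64 in gamma_ON, and 8.71 and 8.57 in gamma_OFF (gamma_OFF minus CTRL -1.07, SE 0.16, adjusted p = 0.00851, with 0.052 without CTRL replicate 1 and 0.0482 without gamma_OFF replicate 2). VIM, the vimentin gene, differed by -0.84 (SE 0.12, adjusted p = 0.00851, with 0.0743 and 0.036 in those fits). TAGLN also fell in gamma_ON (-0.62 against CTRL, adjusted p = 0.0304), where leaving out a CTRL or gamma_ON array gave up to 0.243. In gamma_OFF it differed by -0.55 (adjusted p = 0.0235), with values of 0.141 and 0.143 without CTRL replicates 1 and 2, 0.053 without either gamma_ON array and 0.054 without gamma_OFF replicate 2. Between the histone vectors TAGLN differed by -0.07 (limma adjusted p = 0.652). SNAI2 and VIM were called higher in gamma_ON than in gamma_OFF, by 1.01 and 0.64 (limma adjusted p = 0.0146 and 0.0308). Without gamma_OFF replicate 2 these differences were 0.94 and 0.64, and both calls were lost, as they were without either gamma_ON array. The other 8 of the 10 markers were not called between the histone vectors with all arrays, where 5.99% of all genes were called. In these bulk samples fewer cells of a type and less RNA per cell cannot be told apart, and the part of such cells in the lower fibronectin and fibrillin levels was not tested.

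VTN, the vitronectin gene, had the largest difference of the 18. It encodes a plasma glycoprotein made chiefly by the liver, which also carries an integrin-binding site. Its log2 level was 7.83 and 7.45 in CTRL, 9.41 and 9.35 in gamma_ON, and 7.78 and 7.61 in gamma_OFF. The gamma_ON arrays stood well above the other 4, whose ranges overlapped. VTN rose 3.34-fold in gamma_ON against CTRL (log2 difference 1.74, SE 0.15, adjusted p = 0.000755) and was 3.22-fold higher in gamma_ON than in gamma_OFF (1.69, SE 0.15, adjusted p = 0.000905). Both calls held whichever array was left out, with adjusted p-values up to 0.0201 and 0.0221, and gamma_ON exceeded gamma_OFF by 1.60 without gamma_OFF replicate 2 (adjusted p = 0.0143). Gamma_OFF and CTRL differed by 0.05 (95% interval -0.28 to 0.39, adjusted p = 0.83), and by -0.14 without CTRL replicate 2 and -0.03 without gamma_OFF replicate 1.

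LUM and DCN encode lumican and decorin, small leucine-rich proteoglycans that bind collagen fibrils, and lie next to each other on chromosome 12. LUM stood at 9.42 and 8.84 in CTRL, 9.95 and 10.03 in gamma_ON, and 9.09 and 8.69 in gamma_OFF. The gamma_ON arrays were the highest, while CTRL and gamma_OFF overlapped. Gamma_ON exceeded gamma_OFF 2.14-fold (log2 difference 1.10, SE 0.20, adjusted p = 0.026), and exceeded CTRL by 0.86 without passing the test (SE 0.20, adjusted p = 0.0789). The call against gamma_OFF was lost without gamma_ON replicate 1 (0.194), gamma_ON replicate 2 (0.104) or gamma_OFF replicate 2 (0.11), and with array weights (0.0566) or quantile normalization (0.0553). DCN, a dim row, was also highest on the gamma_ON arrays: it stood at 5.84 and 5.60 in CTRL, 6.20 and 6.09 in gamma_ON, and 5.89 and 5.60 in gamma_OFF. Its gamma_ON excess was 0.43 over CTRL (adjusted p = 0.2) and 0.40 over gamma_OFF (adjusted p = 0.0991), and neither was called.

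Of the 10 measured endoderm markers, 5 (AFP, TTR, APOA2, APOB and FGB, which encode liver and yolk sac secretory proteins) rose and CXCR4 fell in gamma_ON against CTRL, where 1.55% of all genes were called. The other 4 markers, SOX17 (0.02), FOXA2 (0.08), GATA4 (0.11) and GATA6 (0.30), were not called in that comparison. AFP, the alpha-fetoprotein gene, stood at 6.93 and 6.86 in CTRL, 11.17 and 11.37 in gamma_ON, and 8.08 and 7.76 in gamma_OFF. APOB stood at 8.27 and 7.81, 10.44 and 10.40, and 7.46 and 7.65 in the same order. AFP, APOB and FGB were called in gamma_ON whichever array was left out. TTR lost its call without gamma_ON replicate 1 (0.0568) or 2 (0.0746), while APOA2 (up to 0.145) and CXCR4 (up to 0.288) lost theirs in several such fits. In gamma_OFF against CTRL, where VTN was not called, AFP rose by 1.02 and 4 markers fell, namely TTR (-0.96), APOA2 (-1.24), FGB (-0.75) and GATA6 (-0.56), where 8.85% of all genes were called. Of these 5 calls that of FGB was lost without gamma_OFF replicate 2 (0.0976), those of TTR, FGB and GATA6 without CTRL replicate 1 (0.087, 0.152 and 0.218), and those of AFP and GATA6 without CTRL replicate 2 (0.0558 and 0.134). FGB and GATA6 also lost theirs without either gamma_ON array (0.0555 and 0.0768), and GATA6 without gamma_OFF replicate 1 (0.0636). Between the histone vectors 6 of the 10 were higher in gamma_ON and 0 lower, where 5.99% of all genes were called, and limma gave 7 higher and 1 lower at an unadjusted p under 0.05, a cut passed by 33% of all genes. Those 6 calls held without gamma_OFF replicate 2, with adjusted p-values up to 0.0305, and that of GATA6 was lost without gamma_ON replicate 1 (0.185) or 2 (0.0778). The summed level of the list did not overlap between gamma_ON and the other groups, as given above, and its part in the VTN and LUM values was not tested.

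**Figure D2:**
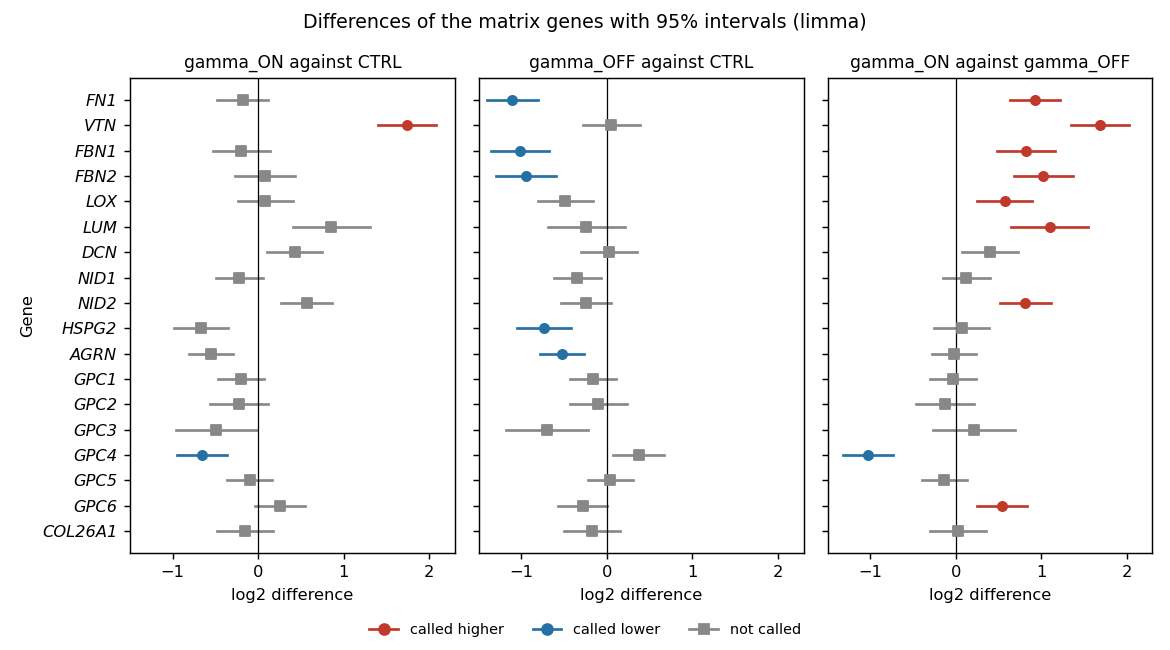
Log2 differences of the 18 genes in the 3 comparisons, with 95% intervals from limma; circles were called at an adjusted p under 0.05 and squares were not. FN1, FBN1 and FBN2 lie left of 0 in gamma_OFF against CTRL, and VTN lies furthest right in both gamma_ON panels.

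HSPG2 and AGRN, which encode the basement membrane proteoglycans perlecan and agrin, were lower with either histone vector than in CTRL. HSPG2 stood at 9.12 and 9.01 in CTRL, 8.45 and 8.35 in gamma_ON, and 8.16 and 8.50 in gamma_OFF. AGRN stood at 8.75 and 8.65 in CTRL, 8.18 and 8.12 in gamma_ON, and 8.17 and 8.17 in gamma_OFF. All 4 arrays with a histone vector lay under both CTRL arrays for either gene, and the histone vectors overlapped each other. In gamma_OFF the falls were called: -0.73 for HSPG2 (SE 0.14, adjusted p = 0.0201) and -0.53 for AGRN (SE 0.11, adjusted p = 0.0288). In gamma_ON the differences were -0.67 (SE 0.14, adjusted p = 0.0586) and -0.55 (SE 0.11, adjusted p = 0.0539), just short of the threshold. These comparisons share the CTRL arrays. A difference between the histone vectors was not called for HSPG2 (0.07, 95% interval -0.25 to 0.39) or AGRN (-0.02, 95% interval -0.28 to 0.24).

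The gamma_OFF calls of these proteoglycans depended on the arrays in the fit. HSPG2 differed by -0.91 without gamma_OFF replicate 2 (adjusted p = 0.0261), and its call was lost without CTRL replicate 1 (0.123) or CTRL replicate 2 (0.0978) and after quantile normalization (0.0598). AGRN lost its call without CTRL replicate 1 (0.168), CTRL replicate 2 (0.137), either gamma_ON array (0.0595 each) or gamma_OFF replicate 2 (0.0685), and after quantile normalization (0.0622). In gamma_ON against CTRL both passed the test with array weights (adjusted p = 0.0115 for HSPG2 and 0.0147 for AGRN). They also passed with only the compared groups in the fit (0.0246 and 0.0389). For each gene 8 of the 15 alternatives left it uncalled, among them every fit without a CTRL or gamma_ON array. With single arrays left out the differences ranged from -0.73 to -0.61 for HSPG2 and from -0.60 to -0.50 for AGRN.

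NID1 and NID2 encode nidogens, which join laminin to collagen IV. They differed in their pattern. NID2 stood at 8.33 and 8.13 in CTRL, 8.81 and 8.78 in gamma_ON, and 7.87 and 8.09 in gamma_OFF, so that the 3 groups did not overlap. Gamma_ON exceeded gamma_OFF 1.76-fold (log2 difference 0.81, SE 0.13, adjusted p = 0.0158). Without gamma_OFF replicate 2 the difference was 0.92 (adjusted p = 0.0342), and the call was lost without gamma_ON replicate 1 (0.167) or replicate 2 (0.081). The difference of 0.57 between gamma_ON and CTRL did not pass (adjusted p = 0.0766), nor did that of -0.25 between gamma_OFF and CTRL (adjusted p = 0.231). NID1 stood at 9.65 and 9.48 in CTRL, 9.38 and 9.30 in gamma_ON, and 9.27 and 9.17 in gamma_OFF, and was called in no comparison. Its differences from CTRL were -0.22 (adjusted p = 0.444) in gamma_ON and -0.35 (adjusted p = 0.0969) in gamma_OFF.

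Among the 6 glypicans GPC4 fell in gamma_ON, and it was the gene with the clearest opposite order of the histone vectors. GPC4 is known from pluripotent cells, where it takes part in WNT signalling. It stood at 11.24 and 11.52 in CTRL, 10.78 and 10.67 in gamma_ON, and 11.76 and 11.74 in gamma_OFF. The 3 groups did not overlap, with gamma_ON lowest and gamma_OFF highest. GPC4 was 2.03-fold lower in gamma_ON than in gamma_OFF (log2 difference -1.02, SE 0.13, adjusted p = 0.00609). Without gamma_OFF replicate 2 this was -1.03 (adjusted p = 0.035), and without gamma_ON replicates 1 and 2 the adjusted p-values were 0.0608 and 0.0649. Against CTRL, GPC4 in gamma_ON differed by -0.65 (SE 0.13, adjusted p = 0.0476), a call that was lost without CTRL replicate 1 (0.0949), CTRL replicate 2 (0.377), gamma_ON replicate 1 (0.235) or gamma_ON replicate 2 (0.258). In gamma_OFF it differed from CTRL by 0.37 (SE 0.13, adjusted p = 0.099), which was called after quantile normalization (0.52, adjusted p = 0.0432) and after rescaling of the signal range (0.53, adjusted p = 0.0435).

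GPC3 lies beside GPC4 on the X chromosome, with no protein-coding gene between them, and did not have the same order of groups. GPC3, which restrains growth in the embryo and is abundant in fetal liver, stood at 11.37 and 11.61 in CTRL, 11.00 and 11.00 in gamma_ON, and 11.16 and 10.42 in gamma_OFF. The gamma_OFF arrays lay further apart than any other replicate pair of the 18 genes and enclosed the gamma_ON arrays. GPC3 was 0.49 lower than CTRL in gamma_ON (SE 0.21, adjusted p = 0.329) and 0.70 lower in gamma_OFF (SE 0.21, adjusted p = 0.0695) and neither difference was called. Without gamma_OFF replicate 2 the gamma_OFF difference was -0.33 (adjusted p = 0.207), and without gamma_OFF replicate 1 it was -1.07 (adjusted p = 0.00718), so its size rests on which gamma_OFF array is used.

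GPC6 and GPC5 are also neighbours, on chromosome 13. GPC6 stood at 9.85 and 9.64 in CTRL, 10.07 and 9.93 in gamma_ON, and 9.52 and 9.40 in gamma_OFF, and was higher in gamma_ON than in gamma_OFF by 0.54 (SE 0.13, adjusted p = 0.0469). That call was lost without either CTRL array (0.0791 each), gamma_ON replicate 1 (0.305), gamma_ON replicate 2 (0.108) or gamma_OFF replicate 2 (0.137), with array weights (0.0843), with only the compared groups (0.0791), after quantile normalization (0.132) and after rescaling (0.0775). GPC5, a dim row, ranged from 5.19 to 5.41 over the 6 arrays and was not called in any comparison.

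GPC1 and GPC2, the latter a glypican of developing neurons, were called in no comparison. GPC1 stood between 7.95 and 8.29 over all arrays, with differences from CTRL of -0.20 in gamma_ON and -0.16 in gamma_OFF on its brighter row and of 0.29 and 0.49 on its dimmer row, so its rows disagree in sign. It was the only one of the 18 genes with more than 1 row. GPC2 stood between 7.84 and 8.27, and its gamma_OFF arrays were the lowest and the highest of the 6. COL26A1, which encodes an unusual collagen described in testis and ovary, stood between 8.44 and 8.82, with 95% intervals of -0.48 to 0.18 in gamma_ON and -0.50 to 0.15 in gamma_OFF against CTRL.

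The groups did not overlap for 14, 12 and 12 of the 18 genes in the 3 comparisons in that order, where 52.4%, 61.3% and 63.3% of all genes did not overlap. Without gamma_OFF replicate 2 the genes called were 5 in gamma_ON against CTRL, 3 in gamma_OFF against CTRL and 3 in gamma_ON against gamma_OFF, and without gamma_OFF replicate 1 they were 5, 6 and 11. Over all genes those fits called 3.27%, 2.61% and 1.01% without replicate 2, and 3.27%, 23.6% and 27.3% without replicate 1, so the share of all genes called moved as well. Without CTRL replicate 1 they were 2, 1 and 7 (0.611%, 1.27% and 1.85% of all genes), and without CTRL replicate 2 they were 1, 3 and 7 (0.255%, 0.88% and 1.85%). Without gamma_ON replicate 1 they were 1, 4 and 1 (0.255%, 3.81% and 0.329%), and without its replicate 2 the counts were equal (0.228%, 3.81% and 0.45%). Of the 16 calls in all, 3 held under every alternative run: VTN in gamma_ON against each other group and FN1 in gamma_OFF against CTRL.

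**Figure D3:**
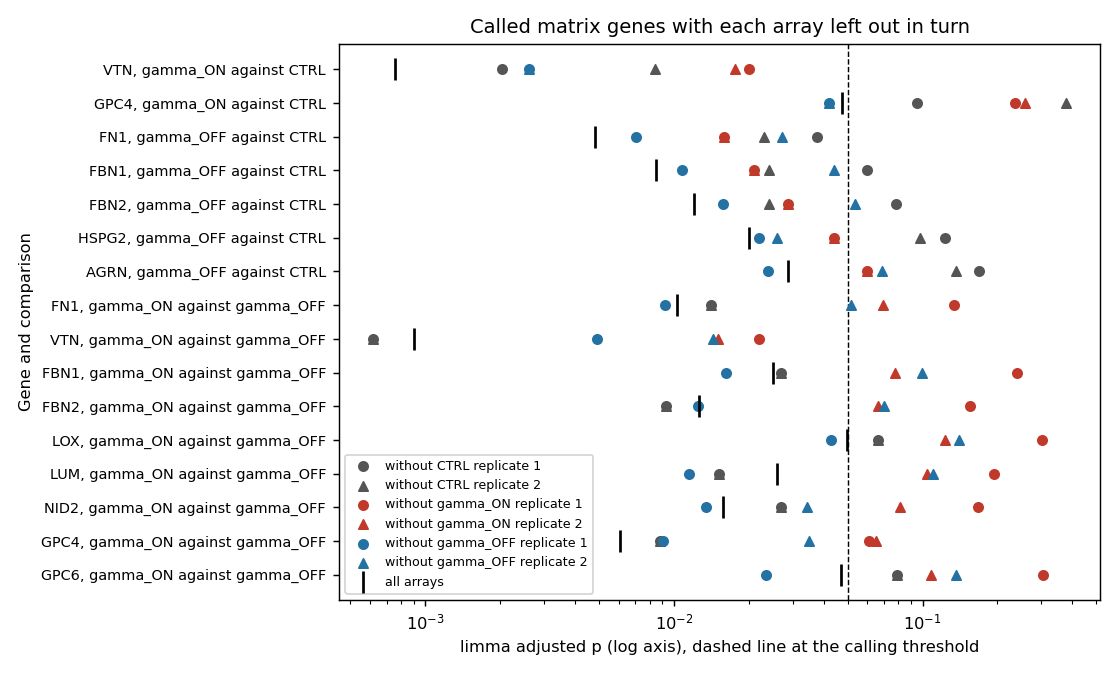
Limma adjusted p on a log axis for each of the 16 called gene and comparison pairs, with all arrays (bar) and with each array left out in turn (points), and the threshold of 0.05 as a dashed line. VTN stays left of the line in both of its comparisons and FN1 in gamma_OFF against CTRL, while the other pairs cross it.

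Other genes of the matrix were taken from a list of 145, of which 105 had a named row: enzymes that modify collagen, proteases with their inhibitors, other glycoproteins, other proteoglycans with hyaluronan genes, and other receptors with adhesion complex genes. In gamma_ON against CTRL 7 of the 105 were called, 4 higher and 3 lower, where 1.55% of all genes were called, with medians of -0.03 over the 105 and 0.02 over all genes. FMOD, which encodes the collagen-binding proteoglycan fibromodulin, rose by 1.41 (SE 0.14, adjusted p = 0.00226) and was called whichever array was left out. TIMP4, an inhibitor of matrix metalloproteinases, rose by 1.20 (SE 0.14, adjusted p = 0.00459, and 0.0675 without CTRL replicate 2 or gamma_ON replicate 1). CCN2, a matricellular growth factor gene, differed by -1.12 (SE 0.12, adjusted p = 0.00371, with 0.0587 without CTRL replicate 2 and 0.0568 without gamma_ON replicate 2). The remaining calls, FREM1 and FERMT1 higher and THBS1 and CD47 lower, were each lost on leaving out at least 3 single arrays, with adjusted p-values up to 0.243, 0.194, 0.192 and 0.323.

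In gamma_OFF against CTRL 15 of the 105 were called, 2 higher and 13 lower, where 8.85% of all genes were called, 2.77% higher and 6.08% lower, with medians of -0.19 over the 105 and 0.01 over all genes. Among 39 other glycoproteins 7 fell and 0 rose, where 6.08% of all genes were called lower; at an unadjusted p under 0.05 by limma were 13 of the 39, or 33.3%, all of them lower, where 30.4% of all genes passed that cut and 16.3% did so lower. TNC, the tenascin-C gene, led with -1.30 (SE 0.16, adjusted p = 0.00539), followed by THBS1, the thrombospondin-1 gene, at -1.01 (SE 0.14, adjusted p = 0.00786). SPP1, the osteopontin gene, stood at -1.01 (adjusted p = 0.011) and CCN2 at -0.94 (adjusted p = 0.00663). CD47, which encodes a receptor that binds thrombospondin-1, stood at -1.02 (SE 0.12, adjusted p = 0.00505), and HAS2, a hyaluronan synthase gene, at -0.93 (SE 0.17, adjusted p = 0.0159). TNC and CD47 were called whichever array was left out. THBS1 and CCN2 had adjusted p-values of 0.0572 and 0.0557 without CTRL replicate 2. SPP1 had 0.0743 and 0.0605 without CTRL replicates 1 and 2, and HAS2 had 0.105 without CTRL replicate 1 and 0.0661 without gamma_OFF replicate 2. The genes called higher were FERMT1, a kindlin gene, by 0.75 (adjusted p = 0.00897, with 0.0743 and 0.067 without CTRL replicates 1 and 2 and 0.0346 without gamma_OFF replicate 2) and HAPLN3 by 0.59 (adjusted p = 0.0201, with 0.101, 0.152 and 0.0563 without CTRL replicate 1, CTRL replicate 2 and gamma_OFF replicate 2).

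Of 28 genes listed for collagen folding, modification and crosslinking, 14 were measured. Limma called 1 of the 14 in gamma_OFF against CTRL, where 8.85% of all genes were called. It called 1 in gamma_ON against gamma_OFF, where 5.99% were called. At an unadjusted p under 0.05 were 21.4% of the 14 in either comparison, against 30.4% and 33% of all genes. P3H1, a prolyl hydroxylase gene, was the only gene called. It was lower in gamma_OFF than in CTRL (log2 difference -0.65, adjusted p = 0.0136, with 0.097 and 0.101 without CTRL replicates 1 and 2 and 0.0348 without gamma_OFF replicate 2) and higher in gamma_ON than in gamma_OFF (0.56, adjusted p = 0.034, and up to 0.254 with an array left out). In the 17 measured proteases and inhibitors 0 were called in gamma_OFF against CTRL by limma, where 8.85% of all genes were, with 9 at an unadjusted p under 0.05, or 52.9% against 30.4% of all genes.

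Between the histone vectors 18 of the 105 were called, 17 higher in gamma_ON and 1 lower, where 5.99% of all genes were called, 3.98% higher and 2.02% lower, with medians of 0.08 over the 105 and 0.02 over all genes. HAS2 led at 1.44 (SE 0.17, adjusted p = 0.00387), followed by SPP1 at 1.11, HAPLN1, which encodes a link protein of hyaluronan, at 1.06, FREM1 at 1.05 and TNC at 1.02. HAPLN3 was the gene that was lower, at -0.59. None of the 18 was called on leaving out every array in turn, and HAS2 missed the threshold only without gamma_ON replicate 1 (adjusted p = 0.059). Without that array SPP1, HAPLN1, FREM1, TNC and HAPLN3 had adjusted p-values of 0.122, 0.138, 0.144, 0.173 and 0.259, and without gamma_OFF replicate 2 they had 0.0333, 0.0597, 0.0484, 0.0834 and 0.0899.

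**Figure D4:**
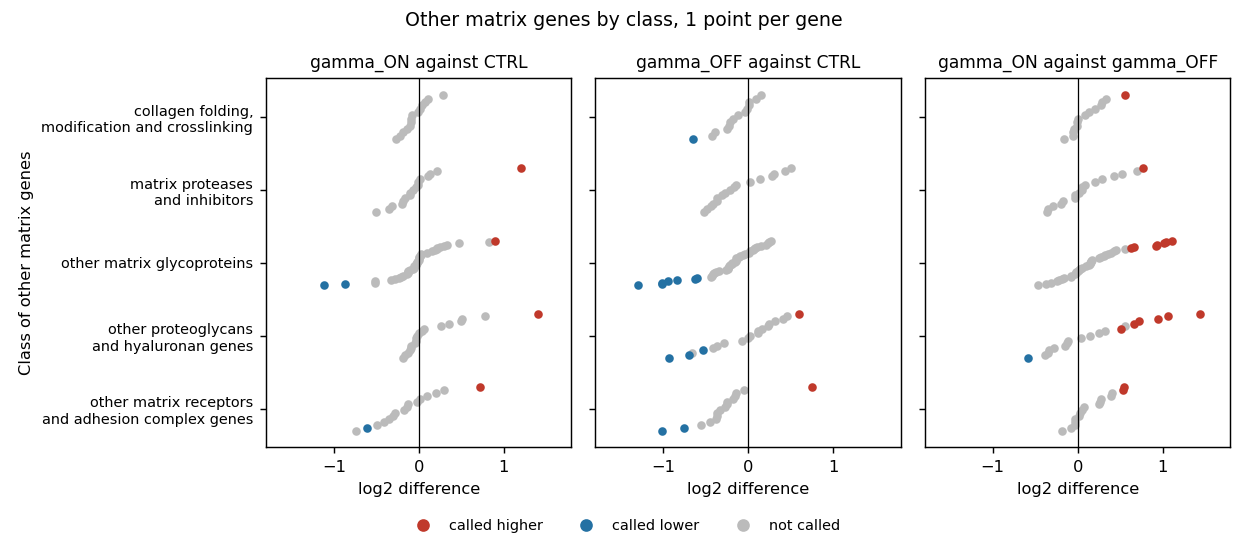
Log2 differences of the 105 other matrix genes in 5 classes, 1 point per gene, in the 3 comparisons; coloured points were called by limma at an adjusted p under 0.05. In gamma_OFF against CTRL the called points of the glycoprotein class all lie left of 0, and between the histone vectors 17 of 18 called points lie right of 0.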

How the data were processed

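Total RNA of 6 samples was measured on Affymetrix human gene arrays. The deposited values are log2 levels per array row; the submitters' processing notes name RMA and Partek 6.6, while their order and options, the build and the annotation were not stated in the labels used. Of 53617 rows, 16098 had 1 gene symbol in the platform annotation, 0 had several and 37519 were unnamed here; all 16098 gene identifiers matched RefSeq. Where a gene had more than 1 row (779 genes) its brightest was kept, which left 14884 genes.

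Limma 3.58.1 in R 4.3.3 (lmFit, eBayes) fitted group means over all 6 arrays, with 3 residual and 6.05 prior degrees of freedom. Two-sided contrasts were adjusted by Benjamini-Hochberg over all genes. With 2 arrays per group the smallest exact permutation p is 0.333, so none was run. The number of arrays limits the precision. A leave-one-out fit assumes that a lone array varies like the other groups. The members and lists were chosen with earlier results of these data known. Named were all members called in any comparison, FN1, VTN, HSPG2, NID1, AGRN, GPC3, GPC4 and LUM whatever their values, the brightest of each role class and, of other matrix genes, called ones with the largest differences; DCN, GPC1, GPC2 and GPC5 were added after their values were seen. Promoter words were searched on both strands. On simulated data for gamma_ON against CTRL over 14884 genes, the fit recovered 72% of those shifted by 1 log2 unit and 96% of those shifted by 2, with 10 false calls among 178. Alternatives varied the spread model, array weights, which arrays entered, the dim-gene filter, the row per gene, normalization, signal range, replicate block and threshold.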

Additional observations from a re-analysis of the deposited data

How the results depend on the processing

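Of the 16 called pairs of gene and comparison 0 changed direction under the 15 alternatives and 3 kept their call in every one. The count of matrix genes called in gamma_ON against CTRL, 2 in the report, was 6 with a trended and robust spread, with array weights, with dim genes left out and at a threshold of 0.10, 5 with only the compared groups, and 1 to 5 with single arrays left out. In gamma_OFF against CTRL, 5 in the report, it was 9 at a threshold of 0.10 and 1 to 6 with single arrays left out. In gamma_ON against gamma_OFF, 9 in the report, it was 5 with array weights and 1 to 11 with single arrays left out. With the replicate block it was 2, 5 and 9. The labels do not say whether the replicate numbers pair the samples. Correlations of replicate differences between groups were -0.096, -0.073 and 0.088 over all genes. Such values cannot decide it, since a pairing may affect only some genes. With the block LUM was called higher (adjusted p = 0.047) and GPC4 was not called (0.0635) in gamma_ON against CTRL. Of all genes 230, 1317 and 892 were called in the 3 comparisons in that order, against 803, 767 and 229 with array weights, 381, 1729 and 1596 with a trended and robust spread, 487, 567 and 275 with only the compared groups, 377, 1731 and 1862 with dim genes left out, 508, 2941 and 3121 at a threshold of 0.10, 169, 933 and 476 after quantile normalization, 196, 966 and 450 after rescaling, and 34 to 487, 131 to 3515 and 49 to 4061 with single arrays left out.

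Only differences that were not called turned sign, and the cause was not tested. With the mean of all rows GPC1 was 0.046 in gamma_ON and 0.16 in gamma_OFF against CTRL. Quantile normalization gave -0.0696 for DCN, 0.029 for GPC2 and -0.059 for GPC5 in gamma_OFF against CTRL, and -0.15 for COL26A1, -0.093 for HSPG2 and -0.081 for NID1 in gamma_ON against gamma_OFF. Rescaling gave -0.054 for COL26A1 and -0.0046 for HSPG2 there. With single arrays left out the values that crossed 0 ranged from -0.14 to 0.30 for FBN2, -0.10 to 0.27 for LOX in gamma_ON against CTRL; -0.53 to 0.049 for LUM, -0.12 to 0.17 for DCN, -0.14 to 0.25 for VTN, -0.31 to 0.11 for GPC2, -0.044 to 0.12 for GPC5 in gamma_OFF against CTRL; -0.13 to 0.18 for COL26A1, -0.054 to 0.015 for AGRN, -0.10 to 0.025 for GPC1, -0.10 to 0.24 for HSPG2, -0.34 to 0.0897 for GPC2, -0.16 to 0.58 for GPC3 in gamma_ON against gamma_OFF. Quantile normalization moved the median of the 18 genes from -0.27 to -0.12 in gamma_OFF against CTRL and from 0.31 to 0.19 between the histone vectors. Signal under the median row limits DCN and GPC5.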
